A study of Drosophila melanogaster with 23 samples.

Results

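Got2, Sqor, ND-51, COX7C and Acat1 encode 5 mitochondrial enzymes or respiratory chain subunits of Drosophila melanogaster. They were chosen with earlier results of these data known, and were found by gene symbol in the array's annotation. Each was represented by 1 of the 6101 features of a spotted 2-colour cDNA array. Their Entrez gene identifiers are 33373 (Got2), 38514 (Sqor), 33852 (ND-51), 50246 (COX7C) and 31695 (Acat1). In the Release 6 gene table Got2 and ND-51 lie on chromosome arm 2L, Sqor on 3L, COX7C on 2R and Acat1 on X. The question was how far each differed among strains and whether the 5 varied together.

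The study compared whole adult males of 8 strains on 23 arrays. The strains were Zimbabwe2, Zimbabwe29, Zimbabwe30 and Zimbabwe53, and, as the 4 others, Hikone R, Oregon R, St Louis and Canton S. All flies were reared at 25 °C without a light cycle, males were collected within 24 h of eclosion and aged for 3 to 4 days apart from females, and no strain was treated. Batches of 8 to 12 males were homogenised for RNA, and each strain's batches were combined, so a strain is 1 RNA pool. The p-values of strain comparisons therefore measure the spread between arrays, which is technical, and not the spread between flies or rearings.

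Of the 23 arrays, 21 compared different strains in 13 strain pairs, and 2 held a strain against itself. For 8 pairs there were 2 arrays with the channels exchanged, and for 5 pairs there was 1 array. Between 3272 and 4987 features had a value on an array. The number of arrays limits the precision: Zimbabwe2, Zimbabwe29, Hikone R and St Louis were on 3 arrays each, Zimbabwe30 and Oregon R on 5 each, Zimbabwe53 on 9 and Canton S on 11. The SD of log2 ratios over all features was 0.28 to 0.52 on arrays of different strains, and 0.14 and 0.17 on those of a strain against itself. Got2, ND-51 and Acat1 were measured on all 23 arrays, COX7C on 22 and Sqor on 21.

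A sign below reads the first channel as the numerator of the deposited ratio, which the sources do not state. All signs would turn together under the other reading, so no strain is called higher or lower, and only sides and sizes are compared. The deposited values were read as log10 and are given as log2. If they were log2 already, every log2 difference would be smaller by the same factor, and the ranges of the 5 genes would span 1.08 to 1.42-fold in place of 1.29 to 3.22-fold.

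Mitochondria oxidise fuel molecules and pass the electrons along the respiratory chain to oxygen, which drives ATP synthesis. ND-51 is a subunit of complex I, the entry point for electrons from NADH, and COX7C is a small subunit of cytochrome c oxidase, where the electrons reach oxygen. Sqor, sulfide:quinone oxidoreductase, feeds electrons from sulfide into the same chain. Got2 is the mitochondrial aspartate aminotransferase, part of the malate-aspartate shuttle that carries reducing equivalents across the inner membrane, and Acat1 is a mitochondrial acetyl-CoA acetyltransferase of ketone body and isoleucine metabolism. Flight muscle is densely packed with mitochondria, and the testis, fat body and gut contribute RNA to a whole fly as well. In whole-fly RNA, fewer cells of a type and less RNA per cell cannot be told apart.

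The 4 genes Sqor, Acat1, Got2 and ND-51 differed among the strains, and COX7C did not pass the test. Across the 8 fitted strain levels the range was 3.22-fold for Sqor, 2.76-fold for Acat1, 2.55-fold for Got2, 2.01-fold for ND-51 and 1.29-fold for COX7C. In limma's moderated F test the Benjamini-Hochberg adjusted p was 3.3e-06 for Sqor, 0.000513 for Acat1, 3.7e-07 for Got2, 0.000176 for ND-51 and 0.525 for COX7C. Of the 4841 features fitted, 45.2% passed the same test, as did 38.5% of the 1409 named genes. The median range of the 5 genes was 2.55-fold, against 1.39-fold over all features fitted and 1.61-fold over those that passed. Sqor, Acat1, Got2 and ND-51 stood at percentiles 97.3, 96.6, 95.8 and 91.1 of the ranges of all features, and COX7C at percentile 30.1. Because the 5 genes were chosen with earlier results of these data known, their ranges and percentiles describe that choice. They do not test whether mitochondrial genes differ more than others.

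**Figure D1:**
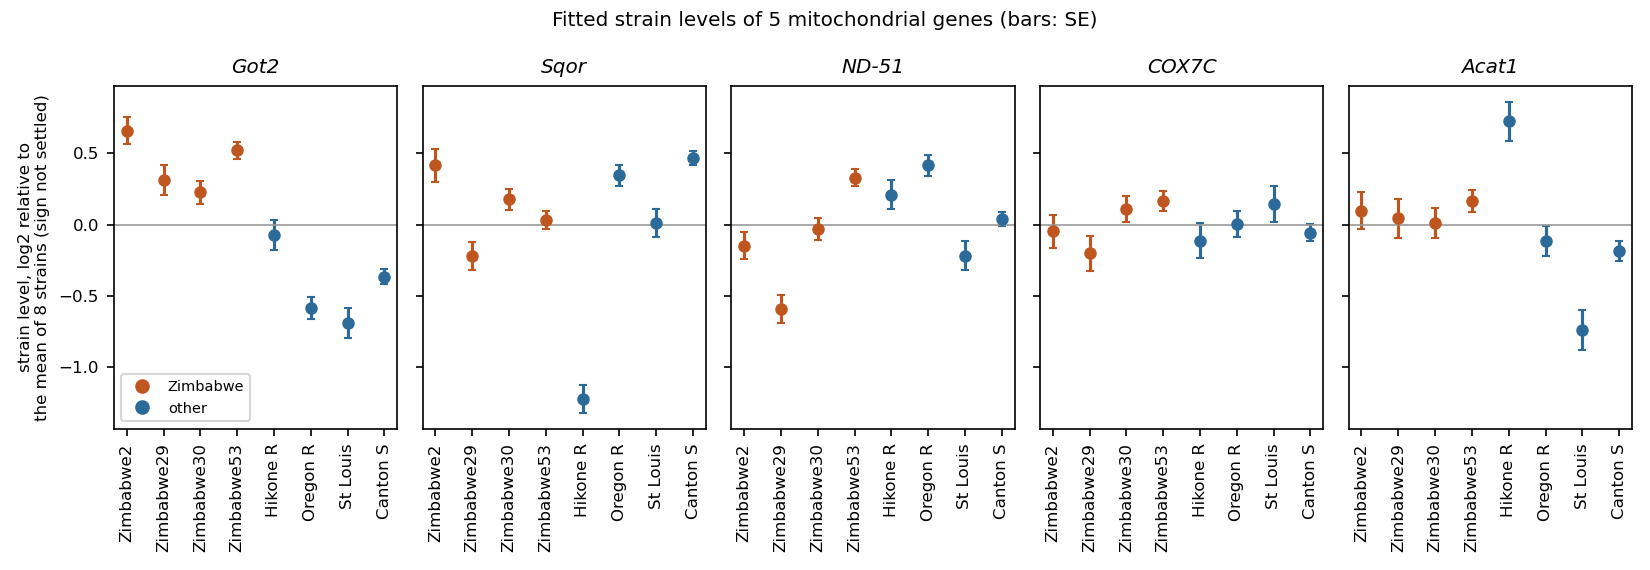
Fitted strain level of each gene (log2 relative to the mean of the 8 strains, bars SE, sign not settled) for the Zimbabwe strains and the others. Got2 separates the 4 Zimbabwe strains from the others, Sqor sets Hikone R apart, Acat1 has Hikone R and St Louis at opposite ends, and COX7C lies between -0.20 and 0.17.

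Set against the mean of the other 7 strains, 14 of the 40 combinations of gene and strain passed an adjusted p of 0.05. Oregon R had 3 of the 5 genes past it, where 12.4% of all features passed. Zimbabwe2 (6.49% of all features), Zimbabwe53 (26.2%), Hikone R (10.9%), St Louis (6.22%) and Canton S (19%) had 2 each, Zimbabwe29 (8.92%) had 1 and Zimbabwe30 (11.9%) had 0. Of the 14 calls, 12 held under every alternative processing that gave a value.

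Got2, whose enzyme interconverts aspartate and oxaloacetate in the mitochondrion, had every Zimbabwe strain on one side of every other strain. Its level was 0.66 in Zimbabwe2, 0.31 in Zimbabwe29, 0.23 in Zimbabwe30 and 0.52 in Zimbabwe53, against -0.07 in Hikone R, -0.36 in Canton S, -0.59 in Oregon R and -0.69 in St Louis. The SE of these levels was 0.05 to 0.10. On the 14 arrays that set a Zimbabwe strain against another strain the log2 ratio was on the positive side each time, with a lowest value of 0.36, a median of 0.85 and a highest value of 1.32. It was on the positive side on all 14 without the dye correction as well. Of the 2083 features measured on all 14 arrays, 3.7% lay on 1 side throughout.

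The single arrays show the size of that split. Zimbabwe53 against Oregon R gave log2 ratios of 1.32 and 1.19 for Got2, and Zimbabwe53 against St Louis gave 1.21 and 1.32. Zimbabwe2 gave 1.26 against Oregon R and 1.01 against Canton S. The smallest ratios across the split were 0.36 for Zimbabwe29 against Canton S, 0.47 for Zimbabwe30 against Canton S and 0.49 for Zimbabwe29 against Hikone R. The exchanged array gave 0.89 for Zimbabwe29 against Canton S and 0.75 for Zimbabwe30 against Canton S. Zimbabwe53 against Canton S gave 0.82 and 0.61, and Zimbabwe30 against St Louis gave 0.81. Pairs within the Zimbabwe strains gave 0.14 for Zimbabwe2 against Zimbabwe53 and -0.08 and -0.44 for Zimbabwe30 against Zimbabwe53. Pairs within the others gave 0.57 and 0.11 for Hikone R against Canton S and -0.16 and 0.03 for Oregon R against Canton S. In size, the values within a group of strains thus overlapped with the smallest of those across the split. With a strain against itself, the Got2 feature read 0.13 on the Canton S array and 0.18 on the Zimbabwe53 array, or -0.11 and -0.06 after subtraction of its dye offset of 0.24.

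Got2 differed from the mean of the other 7 in 5 of the 8 strains. The difference was 0.75 ± 0.11 in Zimbabwe2 (SE, 1.69-fold, limma adjusted p = 0.000812) and 0.59 ± 0.07 in Zimbabwe53 (1.51-fold, adjusted p = 3.1e-05). On the other side it was -0.67 ± 0.09 in Oregon R (1.59-fold, adjusted p = 0.000173), -0.79 ± 0.12 in St Louis (1.73-fold, adjusted p = 0.000875) and -0.42 ± 0.06 in Canton S (1.33-fold, adjusted p = 0.0002). Zimbabwe29, Zimbabwe30 and Hikone R did not pass. In the order of levels, the steps between Zimbabwe30 and Hikone R (0.30 ± 0.15), Hikone R and Canton S (0.29 ± 0.11) and Canton S and Oregon R (0.22 ± 0.09) exceeded 2 SE, and the remaining neighbours did not differ beyond that.

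The comparison of Zimbabwe strains with the others takes the spread between strains as its error. The mean Got2 level was 0.43 ± 0.20 in the Zimbabwe strains and -0.43 ± 0.27 in the others (SD, n = 4 each), a difference of 0.86 ± 0.15 (SE) or 1.81-fold. The limma p was 0.000222 and the adjusted p over all features 0.0597, so the difference missed the threshold, at rank 18 among 4841 features. Under the alternatives the adjusted p lay between 0.0367 and 0.090, and it passed with arrays of the same title stem as a block (0.0439) and with only features measured on all 21 arrays (0.0367). At the same threshold 0.248% of features passed, and the levels of Zimbabwe and other strains did not overlap in 6.65% of features.

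The medians of the few fitted gut and muscle markers did not overlap between the Zimbabwe strains and the others, while those of fat body and testis markers did. How often medians of other gene sets of these sizes do so was not determined. The 2 fitted gut genes of 51 listed, both past the F test, had median levels of -0.84 in Zimbabwe2, -0.66 in Zimbabwe29, -0.09 in Zimbabwe30 and -0.29 in Zimbabwe53, against 0.17 in Hikone R, 0.48 in Canton S, 1.09 in Oregon R and 0.15 in St Louis. They were on the opposite sides from Got2, and the lipase gene mag alone also separated the 4 Zimbabwe strains from the others, while yip7 did not. The 4 fitted genes of 32 listed for flight and body muscle, 3 of them past the F test, had medians between -0.24 and -0.01 in the Zimbabwe strains and between 0.02 and 0.15 in the others. The muscle medians nearest each other were -0.01 in Zimbabwe53 and 0.02 in Hikone R. They were closer than the SE of a strain level in the median feature (0.05 to 0.11), so this split was not resolved. No single muscle gene separated the Zimbabwe strains from the others as that median did. Strn-Mlck was at 0.33 in Zimbabwe30, 0.24 in Zimbabwe53 and -0.17 in St Louis, and Prm at 0.10 in Zimbabwe53 and -0.11 in Hikone R. Zasp66 was at 0.16 in Zimbabwe29 and -0.31 in Hikone R, and up at 0.03 in Zimbabwe2 and 0.02 in Canton S. The medians of the 5 fitted fat body genes of 24 listed, 2 of them past the F test, overlapped, at -0.13 to 0.21 in the Zimbabwe strains and -0.11 to 0.00034 in the others. The 2 that passed shared some of Got2's sides but not all. On the same side, bmm was at 0.37 in Zimbabwe2, 0.54 in Zimbabwe53 and -0.51 in St Louis. FASN1 was likewise at 0.58 in Zimbabwe2, 0.51 in Zimbabwe53 and -0.34 in Oregon R. On the opposite side, bmm was at -0.18 in Zimbabwe30. FASN1 was opposite at -0.32 in Zimbabwe29, -0.15 in Zimbabwe30 and 0.13 in St Louis. The medians of the 4 fitted testis genes of 52 listed, all past the F test, overlapped as well, at -0.37 to 0.64 in the Zimbabwe strains and -0.46 to 0.43 in the others. The part of these markers in the Got2 difference was not tested.

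The other 4 genes did not pass this comparison. The difference of Zimbabwe strains minus the others was 0.20 ± 0.33 for Sqor (limma adjusted p = 0.868), -0.22 ± 0.20 for ND-51 (0.725), 0.01 ± 0.10 for COX7C (0.974) and 0.16 ± 0.25 for Acat1 (0.864). Acat1 was on the positive side on 12 of the 14 arrays across the split, Sqor on 5, ND-51 on 6 and COX7C on 7. Without the dye correction these counts were 11, 4, 8 and 9. The arrays share strains, and how often other features reach such counts was not determined, so the counts carry no test.

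**Figure D2:**
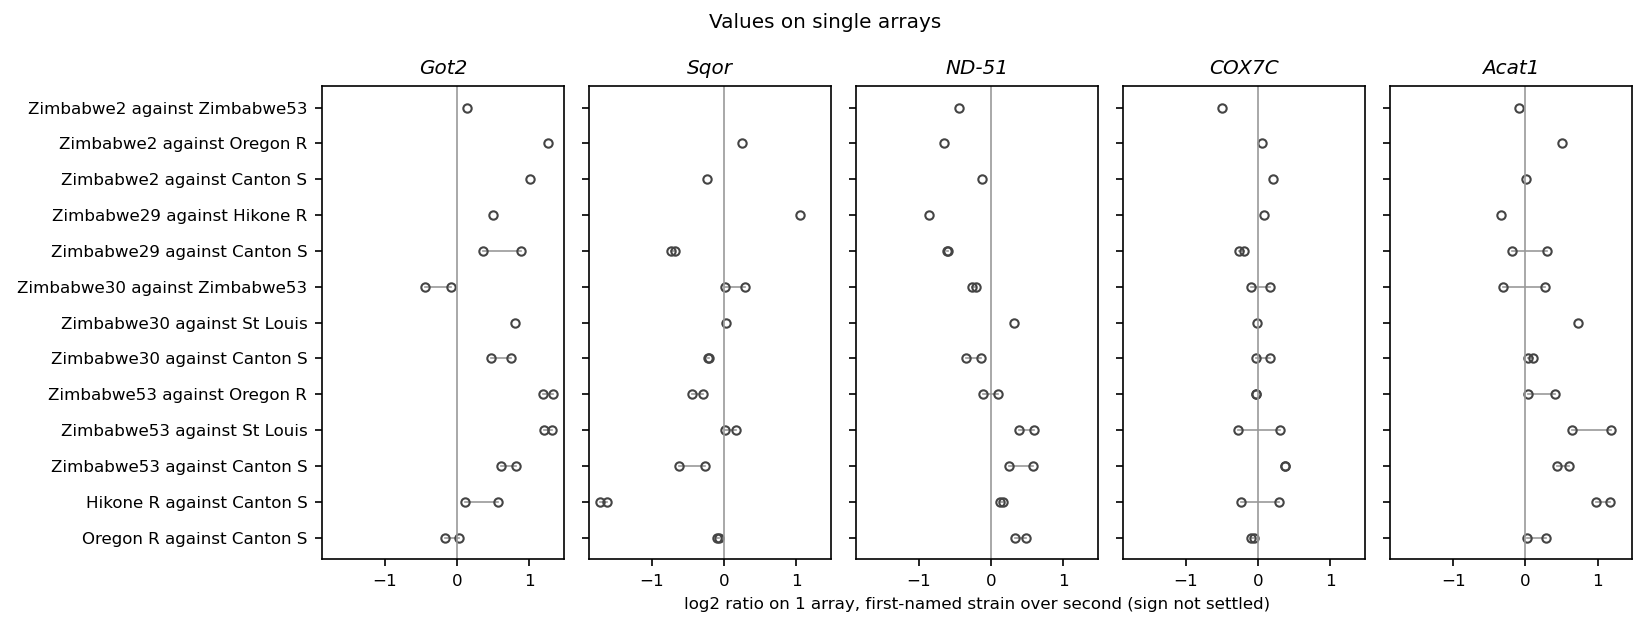
Log2 ratio on each array of different strains (first-named strain over second, dye offset subtracted, sign not settled), with the arrays of a channel-exchanged pair joined by a line. Every array of a Zimbabwe strain against another strain is positive for Got2, and the arrays with Hikone R carry the widest Sqor ratios.

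Sqor, which oxidises sulfide and hands its electrons to ubiquinone, set 1 strain far from the rest. Hikone R against Canton S gave log2 ratios of -1.62 and -1.72 on the exchanged arrays, and Zimbabwe29 against Hikone R gave 1.05. On the other arrays of different strains the widest ratios were those of Zimbabwe29 against Canton S, at -0.73 and -0.68, and Zimbabwe53 against Canton S, at -0.27 and -0.63. The arrays with Hikone R thus lay farthest from 0, and all 3 put it on the same side.

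The Sqor level was -1.22 ± 0.10 (SE) in Hikone R, while the other 7 strains lay between -0.22 in Zimbabwe29 and 0.46 in Canton S. Hikone R differed from the mean of the others by -1.40 ± 0.11, or 2.64-fold (limma adjusted p = 4.6e-06). Neighbours in the order of levels differed beyond 2 SE only between Zimbabwe29 and Hikone R, by 1.00 ± 0.12. Canton S (0.53 ± 0.05, adjusted p = 2.4e-05) and Oregon R (0.39 ± 0.08, adjusted p = 0.00809) were past the threshold on the other side. Zimbabwe2 passed narrowly, at 0.47 ± 0.13 (adjusted p = 0.0487). It rested on 2 arrays, since Sqor had no value on the array of Zimbabwe2 against Zimbabwe53, and the call was lost under 15 of 31 alternatives. Without the array of Zimbabwe2 against Oregon R the difference was 0.28 (adjusted p = 0.548).

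ND-51, the complex I subunit that carries the NADH binding site, was spread more evenly, with Oregon R and Zimbabwe29 at the ends. Zimbabwe29 gave log2 ratios of -0.61 and -0.59 against Canton S and -0.86 against Hikone R. Oregon R against Canton S gave 0.33 and 0.49, and Zimbabwe2 against Oregon R gave -0.65. Zimbabwe53 against St Louis gave 0.38 and 0.59, and Zimbabwe53 against Oregon R gave 0.09 and -0.12. Zimbabwe29 was thus on the same side of both of its partners on all 3 arrays, and Zimbabwe53 and Oregon R did not separate.

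The ND-51 level was -0.59 ± 0.10 (SE) in Zimbabwe29, -0.15 ± 0.09 in Zimbabwe2, -0.03 ± 0.08 in Zimbabwe30 and 0.33 ± 0.06 in Zimbabwe53. Among the other strains it was 0.21 ± 0.10 in Hikone R, 0.04 ± 0.05 in Canton S, 0.42 ± 0.08 in Oregon R and -0.22 ± 0.10 in St Louis. Against the mean of the other 7, Zimbabwe29 stood at -0.68 ± 0.12 (1.60-fold, limma adjusted p = 0.00359), Oregon R at 0.47 ± 0.09 (1.39-fold, adjusted p = 0.00241) and Zimbabwe53 at 0.38 ± 0.07 (1.30-fold, adjusted p = 0.00101). The only step between neighbours beyond 2 SE lay between St Louis and Zimbabwe29, at 0.37 ± 0.17. Testis and gut markers moved at both ends: the testis median was 0.64 in Zimbabwe29 and -0.46 in Oregon R, and the gut median was -0.66 in Zimbabwe29 and 1.09 in Oregon R. The flight and body muscle median was -0.09 in Zimbabwe29 and 0.11 in Oregon R, and the fat body median -0.10 and -0.05. In Zimbabwe2 the gut median was -0.84, where ND-51 stood at -0.15. The part of these tissue markers in the ND-51 levels was not tested.

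COX7C, the cytochrome c oxidase subunit, showed no strain difference that these arrays could resolve. Zimbabwe53 against Canton S gave log2 ratios of 0.37 and 0.36, but Zimbabwe53 against St Louis gave 0.30 and -0.28, and Hikone R against Canton S gave -0.23 and 0.29. The 2 arrays of an exchanged pair had the same sign in 4 of 8 pairs for COX7C, in 6 for Acat1, in 7 for Got2 and ND-51, and in 8 for Sqor. The fitted levels lay between -0.20 ± 0.12 in Zimbabwe29 and 0.17 ± 0.07 in Zimbabwe53, a difference of 0.37 ± 0.17 (SE). No strain passed against the other 7. The residual SD of COX7C was 0.25, against 0.18 for the median feature.

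Acat1, which joins acetyl-CoA units or splits acetoacetyl-CoA, had Hikone R and St Louis at opposite ends. Hikone R against Canton S gave log2 ratios of 1.18 and 0.98. Zimbabwe53 against St Louis gave 0.65 and 1.18, and Zimbabwe30 against St Louis gave 0.73. These 5 arrays held the 5 largest ratios of the gene. Zimbabwe29 against Hikone R, the third array with Hikone R, gave -0.34, on the same side for Hikone R but smaller.

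The Acat1 level was 0.72 ± 0.14 (SE) in Hikone R and -0.74 ± 0.14 in St Louis, and the other 6 strains lay between -0.19 in Canton S and 0.17 in Zimbabwe53. Against the mean of the other 7, Hikone R stood at 0.83 ± 0.16 (1.77-fold, limma adjusted p = 0.00384) and St Louis at -0.84 ± 0.16 (1.80-fold, adjusted p = 0.00461). Without the second array of Zimbabwe53 against St Louis the St Louis call was lost (adjusted p = 0.074). Neighbours differed beyond 2 SE between Hikone R and Zimbabwe53 (0.56 ± 0.19) and between Canton S and St Louis (0.55 ± 0.17). Acat1 was the noisiest of the 5, with a residual SD of 0.30.

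Strain pairs that close a triangle give a check that needs no replicate, since the 3 log2 ratios round it should sum to 0. The median absolute sum was 0.089 for Sqor over 5 triangles, and over 7 triangles it was 0.12 for ND-51, 0.18 for Got2, 0.34 for COX7C and 0.42 for Acat1. The median feature had 0.19. The widest Acat1 triangle, of Zimbabwe29, Hikone R and Canton S, missed closure by 0.68, which is less than the Acat1 range of 1.46 but larger than every step between neighbouring strains. The Got2 range of 1.35 compared with a largest closure error of 0.48, and the Sqor range of 1.69 with 0.40. A strain against itself should read 0 after subtraction of the dye offset. On the Canton S array Sqor read -0.30, ND-51 -0.22, COX7C 0.21 and Acat1 -0.06. Before the subtraction these values were -0.11, -0.06, 0.06 and 0.15. On the Zimbabwe53 array ND-51 read 0.03 and Acat1 -0.14 after it, and Sqor and COX7C had no value.

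The 5 genes did not vary together in a way that these 8 strains could show. Over the fitted strain levels, Pearson's r of the 10 gene pairs was positive in 4 and negative in 6, with a median of -0.02. The median absolute r was 0.31, and over all pairs of fitted features it was 0.32. In exact two-sided permutation tests over all pairings of the strains, 0 of the 10 pairs passed after Benjamini-Hochberg adjustment and 0 had an unadjusted p under 0.05, by r or by Spearman's rho. The smallest p that 8 strains allow is 4.96e-05. The levels share arrays and sum to 0 over the strains, so the points are not fully independent.

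The pair farthest from 0 was Sqor and Acat1, the 2 genes with Hikone R at an end. Their r was -0.63 (exact permutation p = 0.146, adjusted p = 0.784) and their rho -0.40 (exact p = 0.327, adjusted p = 0.933), and 13.4% of all feature pairs lay as far from 0. Without Hikone R and Canton S, the strains farthest from the median of Sqor, r was 0.15, so the value rested on those strains. Got2 and Acat1, which share St Louis as the negative end, had an r of 0.52 (exact permutation p = 0.192, adjusted p = 0.784) and a rho of 0.71 (exact p = 0.0576, adjusted p = 0.576). Without St Louis and Oregon R, the strains farthest from the median of Got2, r was -0.0057. The respiratory chain subunits ND-51 and COX7C, which both had Zimbabwe29 at the negative end, had an r of 0.41 (exact permutation p = 0.314, adjusted p = 0.784), and -0.04 without Zimbabwe29 and Oregon R. Since COX7C did not pass the F test, its ends and order of strains were not resolved, which limits every pair with COX7C. Got2 and Sqor, the pair with the smallest F test p-values, had an r of -0.01 (exact permutation p = 0.979, adjusted p = 0.979). The remaining 6 pairs lay between -0.44 for COX7C and Acat1 and 0.33 for Sqor and COX7C.

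The 2 strains left out were always those farthest from the median of the first-named gene. An end of the second gene, such as Hikone R for Acat1, could therefore remain. In other pairs r lay farther from 0 with 2 strains left out. For ND-51 and Acat1 r was 0.29 over the 8 strains and 0.69 without Zimbabwe29 and Oregon R, for Sqor and ND-51 it was -0.02 and 0.56 without Hikone R and Canton S, and for COX7C and Acat1 it was -0.44 and -0.76 without Zimbabwe53 and Zimbabwe29. Without St Louis and Oregon R, r went from -0.01 to 0.22 for Got2 and Sqor and from -0.12 to 0.29 for Got2 and COX7C. With 2 strains left out r was nearer 0 for Got2 and ND-51, at -0.17, and for Sqor and COX7C, at 0.19. Over the 13 strain-pair values r ran between -0.54 for Sqor and Acat1 and 0.65 for ND-51 and Acat1. There it was -0.37 for Sqor and ND-51 and 0.23 for COX7C and Acat1. The strain-pair values share strains, and their r was not tested.

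**Figure D3:**
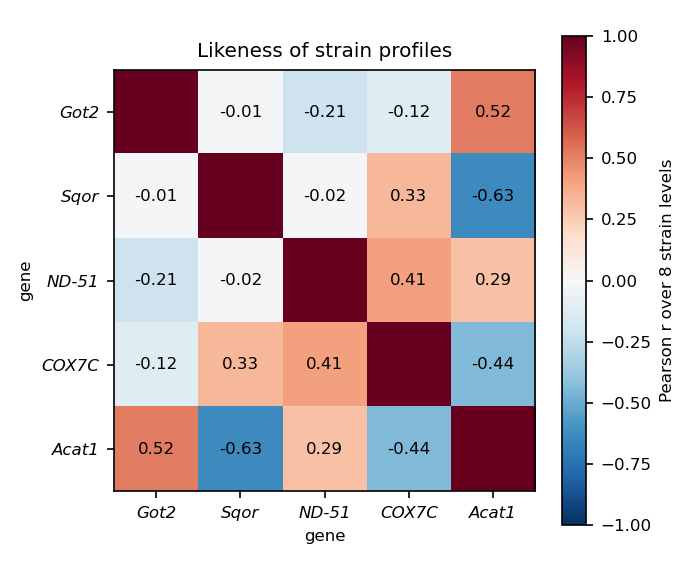
Pearson's r between the 8 fitted strain levels of each pair of the 5 genes (colour and number). The values run between -0.63 for Sqor and Acat1 and 0.52 for Got2 and Acat1, and none of the 10 passed an exact permutation test.

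For each gene, the 5 named genes outside the set with the highest r over the 8 strains were picked among 539 that passed the F test. Their r describes that choice and carries no test. For Got2 they were CG7778 (0.95), the growth factor Pvf1 (0.93), CG5191 (0.90), the autophagy gene Atg13 (0.88) and raw (0.86). For Sqor they were CG33229 (0.92), the G protein alpha subunit cta (0.92), kipf (0.91), CG14989 (0.84) and Gfat2 (0.83), an enzyme of the hexosamine pathway. For ND-51 they were CG12237 (0.96), CG14767 (0.92), beat-Vb (0.92), the leucyl-tRNA synthetase LeuRS (0.91) and Ugt50B3 (0.89).

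COX7C, with little spread of its own, had vib (0.85), Gnpnat (0.83), Adck1 (0.81), the integrin-linked kinase Ilk (0.80) and cue (0.80). Acat1 had RASSF8 (0.84), the Smad protein gene Smox (0.82), the carbonic anhydrase CAH1 (0.77), Vps51 (0.76) and CG5191 (0.75), which was also among the nearest to Got2. Over all 4841 features, an r above 0.9 was reached by 9 features for Got2, 27 for Sqor, 28 for ND-51, 11 for COX7C and 7 for Acat1.

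Of 215 further genes listed for the respiratory complexes, carriers, the tricarboxylic acid cycle, mitochondrial amino acid, ketone, sulfur and fatty acid metabolism, 12 were on the array and 11 could be fitted. BckdhA had no value on any array. Of the 11, 8 passed the F test (38.5% of named genes passed), and their ranges were 1.29 to 1.96-fold, less than those of the 4 members that passed. The median range of the 11 was 1.42-fold. The lists, like the members, were chosen with earlier results of these data known.

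The gene of this set with the widest range was Scsalpha1, the alpha subunit of succinyl-CoA synthetase in the tricarboxylic acid cycle, at 1.96-fold (limma adjusted p = 0.00171). It had the same ends as ND-51, Oregon R and Zimbabwe29, and an r of 0.83 with it over the 8 strains. In Zimbabwe29 it stood at -0.75 from the mean of the other 7 (adjusted p = 0.00359). P5CDh1, which did not pass the F test, had the same ends and an r of 0.82 with ND-51. Cbs, cystathionine beta-synthase of the transsulfuration pathway, ranged over 1.77-fold (adjusted p = 0.00141). As with Sqor, Hikone R was at its negative end, at -0.44 ± 0.12 from the mean of the others (SE, adjusted p = 0.0275), but its positive end was Zimbabwe30, at 0.50 ± 0.09 (adjusted p = 0.00211), and its r with Sqor was 0.54.

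The other 6 that passed had ranges of 1.55-fold in Acsl, a long-chain acyl-CoA synthetase, 1.48-fold in wal, the electron transfer flavoprotein alpha subunit, and 1.48-fold in Hmgs, the cytosolic HMG-CoA synthase. Dic1, a mitochondrial dicarboxylate carrier, and PCB, pyruvate carboxylase, ranged over 1.42-fold each, and Gclm, a subunit of the enzyme that starts glutathione synthesis, over 1.29-fold. Ogdh (adjusted p = 0.678) and CG5214 (0.549), 2 subunits of the oxoglutarate dehydrogenase complex, and the proline pathway enzyme P5CDh1 (0.138) did not pass. Zimbabwe29 was at an end of 5 of the 8, where it was at an end of 31.1% of all features past the F test, and Zimbabwe53 likewise of 5, where it was at an end of 29.9%. The r of these 11 genes with the 5 members ran between -0.78 and 0.83 over 55 values.

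**Figure D4:**
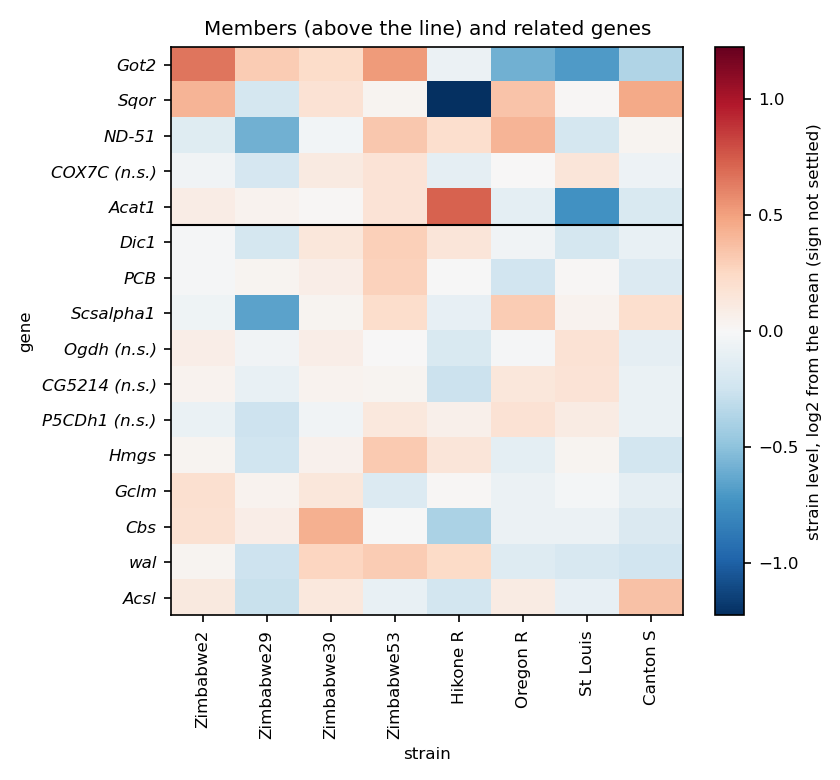
Fitted strain levels (colour, log2 from the mean of the 8 strains, sign not settled) of the 5 genes above the line and of 11 related genes below it, with n.s. for those that did not pass the F test. Zimbabwe29 is the negative end for ND-51, COX7C, Scsalpha1, Dic1, P5CDh1, Hmgs, wal and Acsl, and Hikone R for Sqor, Cbs, Ogdh and CG5214.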

How the data were processed

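The deposited values of each array are ratios of the 2 channels on a log scale, read here as log10. Neither the base nor the numerator is stated, and the largest deposited value, 1.56, would be a 36.4-fold ratio as log10 and 2.95-fold as log2. In all 8 channel-exchanged pairs the arrays were anticorrelated (r of -0.809 to -0.285), so the values turn with the channels. How scanning, spot filtering and normalization were done is not given in the sources used here. No intensities were used, so levels of a gene and the content of tissues could not be checked. Probe names came from the platform annotation (1943 features with 1 gene symbol, 67 with several, 4091 with none), with old symbols updated through the RefSeq gene table (Release 6), where a synonym was unique. No sequence is shown.

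Ratios were multiplied by 3.32 to give log2 and centred on each array's median. A dye offset per feature, the mean over channel-exchanged pairs, was subtracted, arrays were turned to 1 direction, and arrays of a pair were averaged as technical repeats. Features needed 10 of 13 pairs and 3 complete exchanged pairs. Strain levels were fitted with limma 3.58.1 in R 4.3.3, weighted by arrays, with the F test computed per feature for its own missing pairs. Adjusted p is Benjamini-Hochberg over all features, with a threshold of 0.05. Zimbabwe strains and others were compared with limma on the 8 levels. Correlations were tested by exact permutation of the strains. The procedure was tested on simulated data.

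Named genes were the 5 members, the 5 named genes most like each over the strains among those past the F test, and the measured genes of pathway and tissue marker lists. The members and lists were chosen with earlier results of these data known. The gene nkd was taken out of a list as a wrong entry, since it is no mitochondrial gene. The lists still hold related enzymes outside mitochondria, such as the cytosolic Hmgs. Alternatives changed the dye offset, centring, scaling, weights, averaging, blocks and filters, and left out each array.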

Additional observations from a re-analysis of the deposited data

Results flagged for a closer look

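The Sqor level of Hikone R stood apart from those of the other 7 strains. Its gap to the nearest strain, Zimbabwe29, was 0.595 of the range over the 8 strains, above the critical value of Dixon's test for 8 values. All 3 arrays with Hikone R put it on the same side, with log2 ratios of -1.62 and -1.72 for Hikone R against Canton S and 1.05 for Zimbabwe29 against Hikone R. In all, 15 groups of levels were tested this way, and chance flags about 1 in 20.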

How the results depend on the processing

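The F test calls of all 5 genes were the same under every alternative that gave a value (32 for Got2, ND-51, COX7C and Acat1, and 31 for Sqor), and the adjusted p of COX7C lay between 0.277 and 0.749. None of the 14 strain calls reversed. The Sqor call of Zimbabwe2 was lost under 15 alternatives, 13 of which left out 1 array, and the Acat1 call of St Louis under 1. In 5 uncalled combinations of gene and strain the threshold was passed under some alternative. No pair of the 5 genes passed the correlation test under any alternative. The count of features past the F test was 2187, and 1081 with only features measured on all 21 arrays, where fewer were tested and Sqor gave no value, and it lay between 1754 and 2527 without 1 array. The count of features that differed between Zimbabwe strains and the others was 12, and 2 with print blocks centred and 2 with arrays scaled to 1 spread, and it lay between 2 and 17 without 1 array. The cause was not tested. Over all alternatives the count for 1 strain against the other 7 lay between 39.2% of the reported 314 and a count of 506 for Zimbabwe2, and between 165 and 628 for Zimbabwe29, 293 and 801 for Zimbabwe30, 716 and 1675 for Zimbabwe53, 296 and 719 for Hikone R, 399 and 915 for Oregon R, 149 and 548 for St Louis, and 457 and 1217 for Canton S. No paired analysis was possible because the replicate numbers only name the arrays of a strain pair. With 3 arrays for 4 of the strains and 1 RNA pool each, the number of arrays limits what could be resolved.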
